A study of Ovis aries with 12 samples.

Results

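The 10 genes described here are markers of the cells that form the small blood vessels of the brain. CLDN5, PECAM1, CDH5, FLT1, KDR, VWF, SLC2A1 and MFSD2A mark endothelial cells, and PDGFRB and RGS5 mark pericytes. They were chosen by name, 10 of the 33609 genes in the deposited count table, and all 10 had counts in every library and were tested. The table gives their GeneIDs as 101115864 for CLDN5, 100303608 for PECAM1, 101107462 for CDH5, 443088 for FLT1, 443087 for KDR and 101110931 for VWF. SLC2A1 is 443461, MFSD2A 101120365, PDGFRB 101122783 and RGS5 101110554. The tissue was hippocampus, split into a dorsal and a ventral sample, from 12 adult ewes of the Ile-de-France breed, 6 under chronic stress and 6 controls. How the ewes were stressed is not given in the sources used here. RNA was extracted per ewe and region and then mixed in equal amounts, 2 ewes of a condition to a library, and the same ewes gave both regions. This gave 3 libraries in each of 4 groups, namely dorsal control, dorsal stress, ventral control and ventral stress. Each library is a pool of 2 ewes, so p-values measure the spread between pools and not between single ewes. Nothing in the labels says which ewes are in which pool, and the main edgeR fit takes the 12 libraries as independent.

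Brain endothelial cells line the capillaries and are sealed to each other by tight junctions, which together with selective transporters make up the blood-brain barrier. Pericytes wrap the capillaries from outside, are recruited by platelet-derived growth factor from the endothelium, and help to keep the barrier closed. Vascular endothelial growth factor acts on the endothelium through a pair of tyrosine kinase receptors, and loss of claudin-5 from brain vessels has been described in stressed mice.

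Libraries held between 12254743 and 53775720 counts. Levels are given as CPM, the TMM-scaled counts per unit of library size, with the SD over 3 libraries. The 12 libraries differed along a gradient inside the groups, and its leading axis, found after each group mean was taken out of log2 CPM and called the first residual factor, held 66.1% of the within-group variance. Because the group means were taken out first, the scores cannot differ between groups on average. The 2 ends of the gradient were ventral control 1 at 96.6 and ventral control 3 at -112. Summed over 6 neuron genes, the libraries held 3135 to 5118 CPM. In a bulk sample like this, fewer vessel cells and less RNA per vessel cell cannot be told apart.

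CLDN5 encodes claudin-5, the main tight junction protein of the brain endothelium. Its levels were 25.97, 5.55 and 6.33 CPM in dorsal control libraries 1 to 3 and 26.8, 7.60 and 5.72 CPM in dorsal stress libraries 1 to 3. In ventral control libraries 1 to 3 it stood at 48.1, 12.7 and 1.18 CPM, and in ventral stress libraries 1 to 3 at 10.4, 26.7 and 3.399 CPM. The highest and the lowest library of the series were thus both ventral control, 40.9-fold apart, with 2002 and 42 counts. All groups overlapped. The SD of CLDN5 within groups was 1.75 on the log2 scale, larger than in 98.7% of the 17806 tested genes, whose median was 0.50.

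CDH5, vascular endothelial cadherin, holds endothelial cells together at adherens junctions. It was measured at 5.85, 8.07 and 7.70 CPM in dorsal control and 8.51, 8.16 and 9.72 CPM in dorsal stress. Ventral control libraries had 5.17, 13.3 and 15.6 CPM, and ventral stress libraries had 12.9, 12.8 and 14.6 CPM. Every ventral library except ventral control 1 lay above every dorsal library. PECAM1, or CD31, an adhesion molecule of the borders between endothelial cells, had a narrow range in dorsal tissue, 12.3 to 14.1 CPM over 6 libraries. It spread from 10.6 to 18.1 CPM in ventral control and from 15.5 to 20.2 CPM in ventral stress.

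FLT1 and KDR encode VEGF receptors 1 and 2. KDR carries most of the growth signal, and FLT1 binds the ligand tightly and limits it. FLT1 levels were 17.4, 26.6 and 26.1 CPM in dorsal control, 20.4, 29.4 and 32.0 CPM in dorsal stress, 18.5, 27.2 and 38.2 CPM in ventral control and 27.6, 19.3 and 36.1 CPM in ventral stress. KDR levels were 20.5, 38.7 and 39.4 CPM, 19.7, 35.1 and 32.4 CPM, 19.6, 35.9 and 44.6 CPM, and 28.4, 20.1 and 34.97 CPM in the same order. The 4 lowest libraries were the same for both receptors: dorsal control 1, dorsal stress 1, ventral control 1 and ventral stress 2. Those were also the 4 libraries with the highest CLDN5.

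VWF, von Willebrand factor, is a clotting protein stored in endothelial granules. It followed the order of CLDN5 more than that of the VEGF receptors, with 73.8, 44.6 and 39.0 CPM in dorsal control and 71.8, 44.2 and 39.0 CPM in dorsal stress. Ventral control had 83.4, 70.1 and 28.2 CPM and ventral stress 71.5, 50.9 and 40.3 CPM. As with CLDN5, ventral control 1 was the highest and ventral control 3 the lowest of all 12.

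SLC2A1 encodes GLUT1, the glucose transporter of the barrier, which astrocytes also make. It was the steadiest member by its range, 92.2 to 140 CPM, a 1.52-fold spread over 12 libraries. Group means were 123 ± 11.0 CPM in dorsal control, 113 ± 18.0 in dorsal stress, 122 ± 24.6 in ventral control and 112 ± 17.4 in ventral stress (n = 3 each). MFSD2A, which carries omega-3 lipids into the brain and keeps vesicle transport across the endothelium low, had 19.7, 19.7 and 16.7 CPM in dorsal control and 16.3, 14.1 and 11.2 CPM in dorsal stress. Ventral control libraries stood at 19.0, 23.0 and 14.4 CPM and ventral stress libraries at 16.9, 15.2 and 12.1 CPM. All 3 dorsal stress libraries were below all 3 dorsal control libraries for MFSD2A, while the ventral groups overlapped.

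The pericyte genes behaved differently from each other. PDGFRB, the receptor through which the endothelium recruits pericytes, stayed between 34.3 and 59.2 CPM, with group means of 39.7 ± 5.08 CPM in dorsal control, 44.9 ± 4.17 in dorsal stress, 48.7 ± 9.61 in ventral control and 53.0 ± 7.62 in ventral stress (n = 3 each). RGS5, a regulator of G protein signalling that is rich in pericytes, had 32.2, 60.8 and 54.05 CPM in dorsal control and 39.8, 80.0 and 121 CPM in dorsal stress. In ventral control it had 32.9, 37.5 and 96.3 CPM, and in ventral stress 62.3, 58.9 and 121 CPM. The highest values were in dorsal stress 3 and ventral stress 3, and the groups overlapped.

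**Figure D1:**
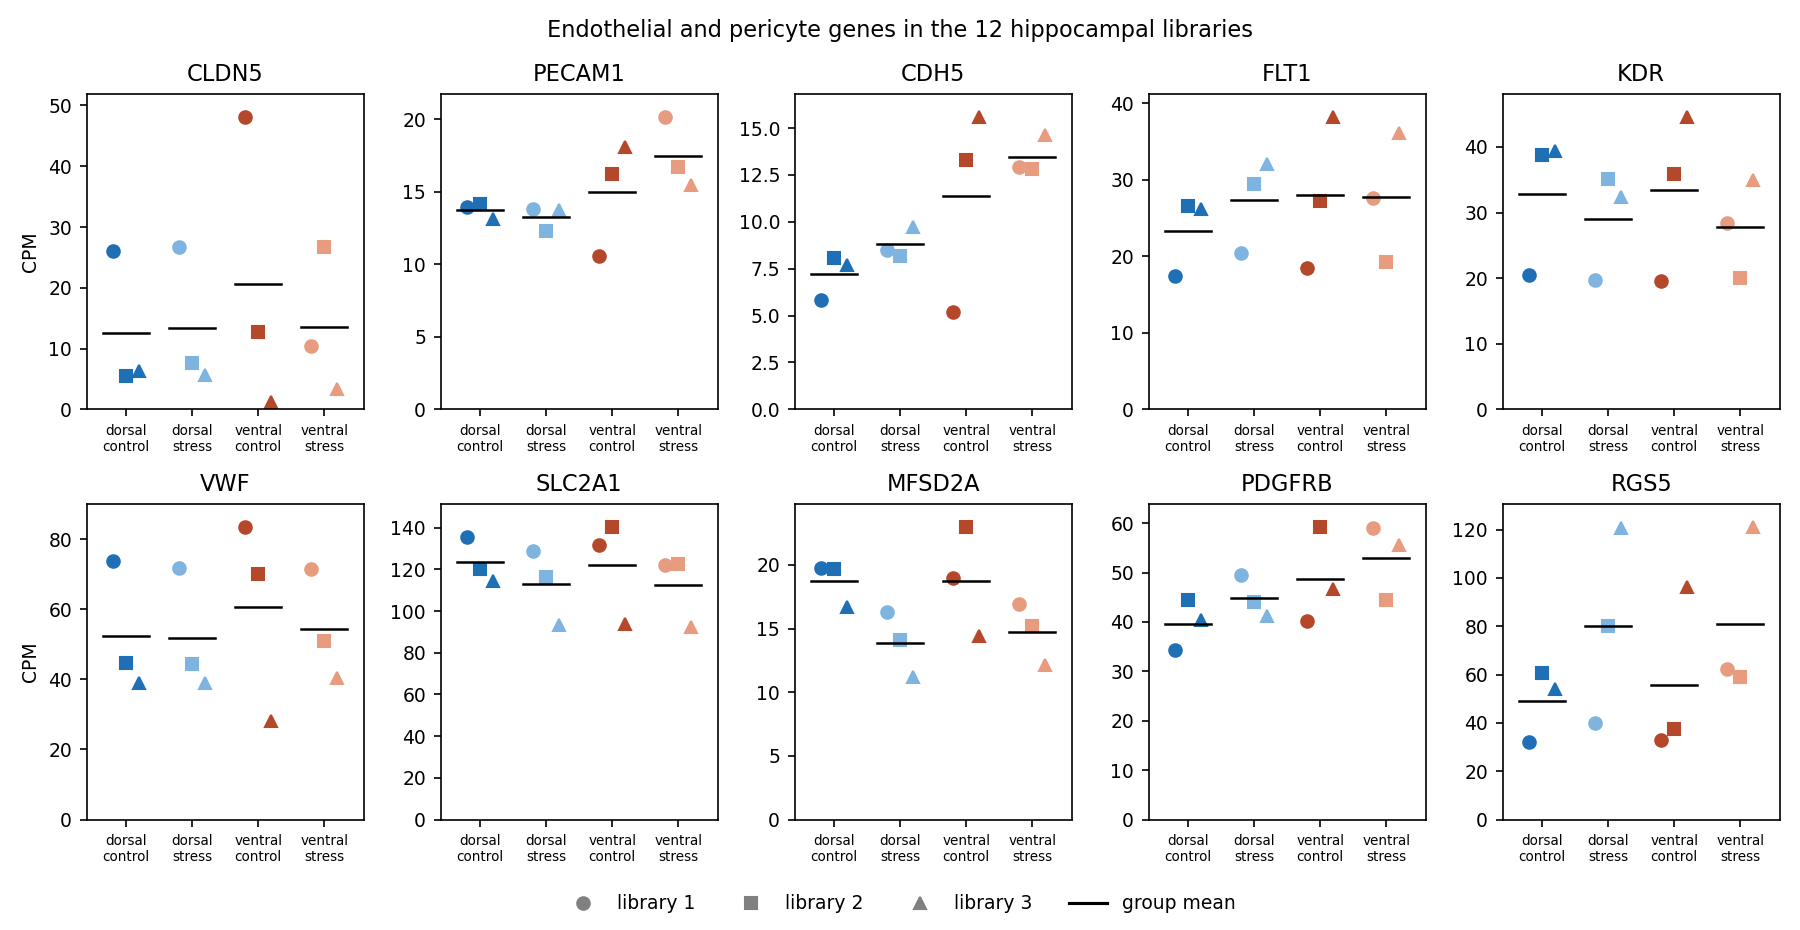
TMM-scaled CPM (vertical axes from 0) of the 10 genes in each of the 12 libraries, by group; marker shape gives the library number and black lines are group means. CLDN5 ran from 1.18 to 48.1 CPM within ventral control alone, while SLC2A1 stayed between 92.2 and 140 CPM.

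The comparison of dorsal with ventral hippocampus, over both conditions, found no difference in the 10 genes that passed the test. Of the 10 members 0 were called by edgeR's quasi-likelihood test at an adjusted p under 0.05, against 4.51% of all tested genes (803 of 17806), where 1.44% of tested genes were higher and 3.07% lower in dorsal tissue. DESeq2 and limma-voom also called 0. An unadjusted edgeR p under 0.05 was found for 1 of 10 members, CDH5, against 13.7% of all tested genes (2448 of 17806). The median log2 fold change of the members, dorsal minus ventral, was -0.14, against -0.02 over all tested genes. Group levels of all 10 overlapped between dorsal and ventral libraries, against 4.9% of tested genes that did not.

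CDH5 had the largest of these differences at -0.63 ± 0.25 (SE; edgeR unadjusted p = 0.0263, adjusted p = 0.248). Its 95% interval on the log2 scale ran from -1.18 to -0.09. The call turned on a single pool: without ventral control 1, the low ventral library, the log2 fold change was -0.81 and the edgeR adjusted p was 0.012. With the first residual factor as a covariate, a fit added after the data were seen, CDH5 was at -0.59 ± 0.16 (edgeR adjusted p = 0.0207). That fit called 3761 of the 17806 genes, and CDH5 itself had an r of -0.76 with the factor. In stressed ewes alone, CDH5 and PECAM1 were the 2 of 10 members whose dorsal libraries all lay below their ventral libraries, where 13.7% of tested genes did not overlap. In control ewes 0 of 10 members separated, against 11.7% of tested genes.

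PDGFRB was at -0.27 ± 0.14 between regions and PECAM1 at -0.26 ± 0.16, with edgeR adjusted p-values of 0.5 and 0.621. The remaining 7 members lay between -0.36 and 0.02. For SLC2A1 the 95% interval was -0.31 to 0.33, so that a difference of 1.26-fold or more in dorsal tissue lies outside it. For CLDN5 the interval was -2.15 to 1.43 on the log2 scale, which leaves room for differences of several fold in either direction. These data therefore bound the regional difference of SLC2A1 tightly and that of CLDN5 hardly at all.

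**Figure D2:**
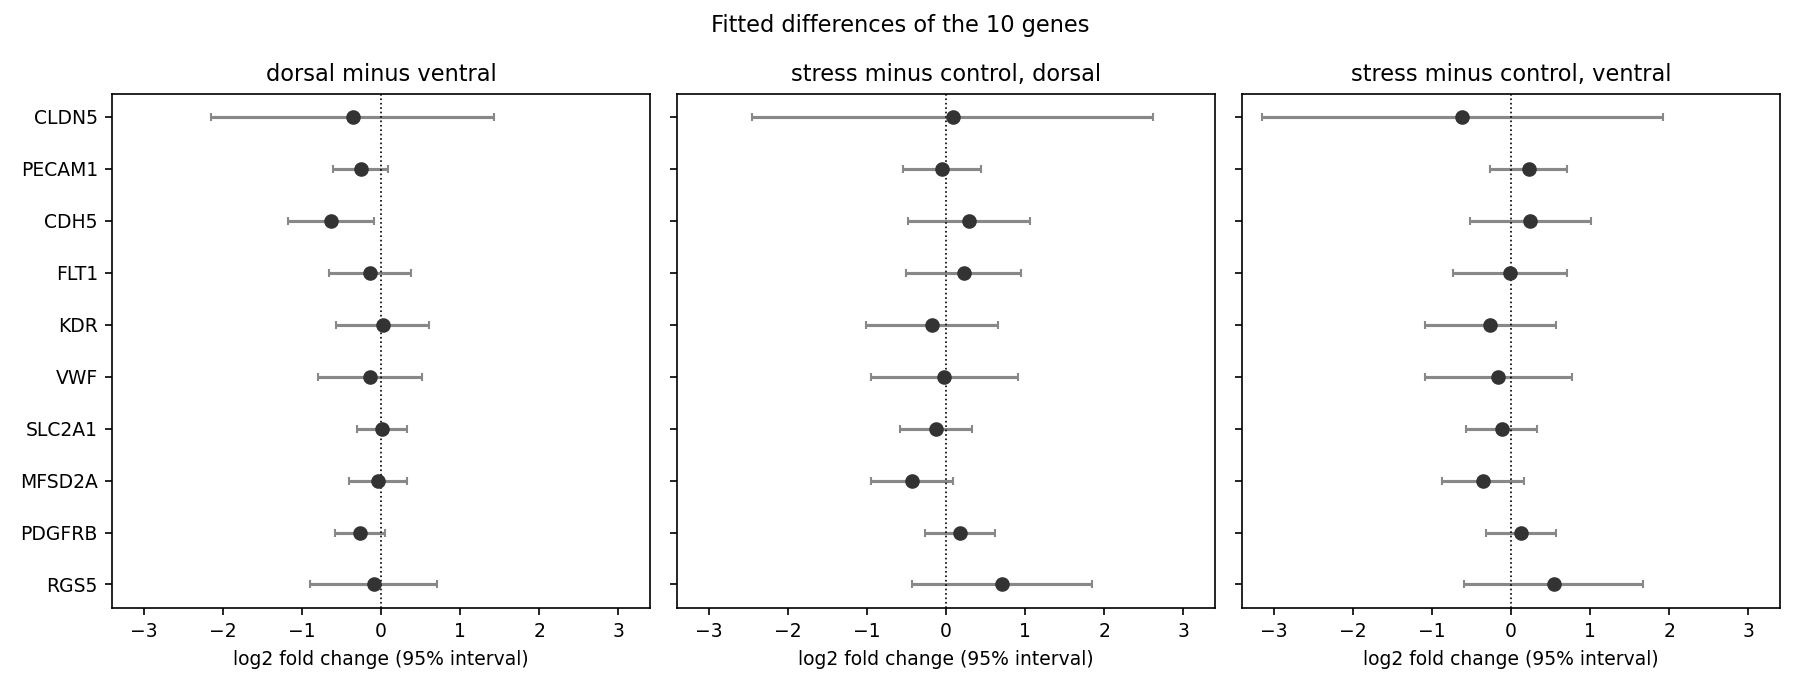
Fitted log2 fold changes of the 10 genes (points) with 95% intervals (bars) from edgeR for dorsal minus ventral, and for stress minus control in each region. The CDH5 interval between regions, -1.18 to -0.09, is the only one in the 3 panels that leaves out 0, and CLDN5 has the widest interval in each.

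Chronic stress was compared with control in each region and as the mean of both. The mean takes dorsal and ventral libraries as independent although the same ewes gave both, so its errors and p-values may be too small. No endothelial or pericyte gene passed: 0 of 10 members were called in dorsal tissue, in ventral tissue or for the mean, and 0% of the 17806 tested genes were called in any of these in edgeR. Unadjusted p-values under 0.05 were found for 152, 142 and 308 of all genes, in that order, and for 0, 0 and 1 of the members. DESeq2 called 1, 1 and 14 genes, with no member among them.

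MFSD2A was the member with an unadjusted p under 0.05, at -0.39 ± 0.17 for the mean of both regions (edgeR unadjusted p = 0.0393, adjusted p = 1.00). It was at -0.43 ± 0.24 in dorsal tissue, where the groups did not overlap, and at -0.35 ± 0.24 in ventral tissue, where they did. CDH5 was the other member that did not overlap in dorsal tissue, 0.29 ± 0.35, with all stress libraries above all controls. Non-overlap of this kind was found for 5.13% of tested genes in dorsal and 2.86% in ventral tissue, and over both regions together for 0.0955% of tested genes and 0 members. The dorsal groups also differed in depth, all 3 dorsal stress libraries being shallower than all 3 dorsal controls, and the part of depth in these values was not tested.

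RGS5 had the largest positive difference with stress, 0.71 ± 0.51 in dorsal and 0.54 ± 0.51 in ventral tissue, and 0.62 ± 0.36 for the mean (edgeR unadjusted p = 0.114). Its 95% interval for the mean was -0.18 to 1.43. With the first residual factor as a covariate the difference was 0.63 ± 0.10 and RGS5 was called (edgeR adjusted p = 0.0164), the only member that was, among 409 genes in all. That factor was computed from the same libraries, and RGS5 itself moves with it, so the smaller error is not independent of the gene. PDGFRB was at 0.15 ± 0.14 for the mean.

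Claudin-5 RNA showed no difference with stress that these pools could resolve. CLDN5 was at 0.08 ± 1.15 in dorsal and -0.62 ± 1.15 in ventral tissue, with 95% intervals of -2.45 to 2.62 and -3.15 to 1.92. VEGF receptors were at 0.23 ± 0.33 (FLT1) and -0.18 ± 0.38 (KDR) in dorsal and at -0.01 ± 0.33 and -0.26 ± 0.38 in ventral tissue. VWF was at -0.02 ± 0.42 and -0.16 ± 0.42, SLC2A1 at -0.13 ± 0.21 and -0.12 ± 0.21, and PECAM1 at -0.05 ± 0.22 and 0.22 ± 0.22. The difference between the stress effects of the regions was called for 0 of 10 members and 0% of all genes, with 46 genes and 0 members at an unadjusted p under 0.05 and 0 genes called by DESeq2. It ranged from -0.27 ± 0.32 for PECAM1 to 0.70 ± 1.62 for CLDN5.

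Within the groups, some genes of the same vessel cell type parted in opposite directions along a gradient that many, but not all, tested genes share. Along the first residual factor CLDN5 deviated from its group mean by 2.40 on the log2 scale in ventral control 1 and by -2.88 in ventral control 3. RGS5 deviated by -0.58 and 0.97 in the same libraries, and CDH5 by -0.98 and 0.60. The ratio of CLDN5 to CDH5 CPM, both endothelial, was 9.31 in ventral control 1 and 0.0754 in ventral control 3. In the other 10 libraries it lay between 0.233 and 4.44. The ratio of RGS5 to PDGFRB, both pericyte genes, ran from 0.633 in ventral control 2 to 2.92 in dorsal stress 3.

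As a description over the 12 libraries, which share this gradient, Pearson's r with the residual factor was above 0.8 for CLDN5, VWF and SLC2A1 and below -0.8 for FLT1, KDR and RGS5. These were 3 and 3 of 10 members, or 30.0% each way. Over all tested genes the shares were 27.8% and 28.02%, so that the members were spread along the gradient much as other genes were. The factor is built from all tested genes, the members included.

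**Figure D3:**
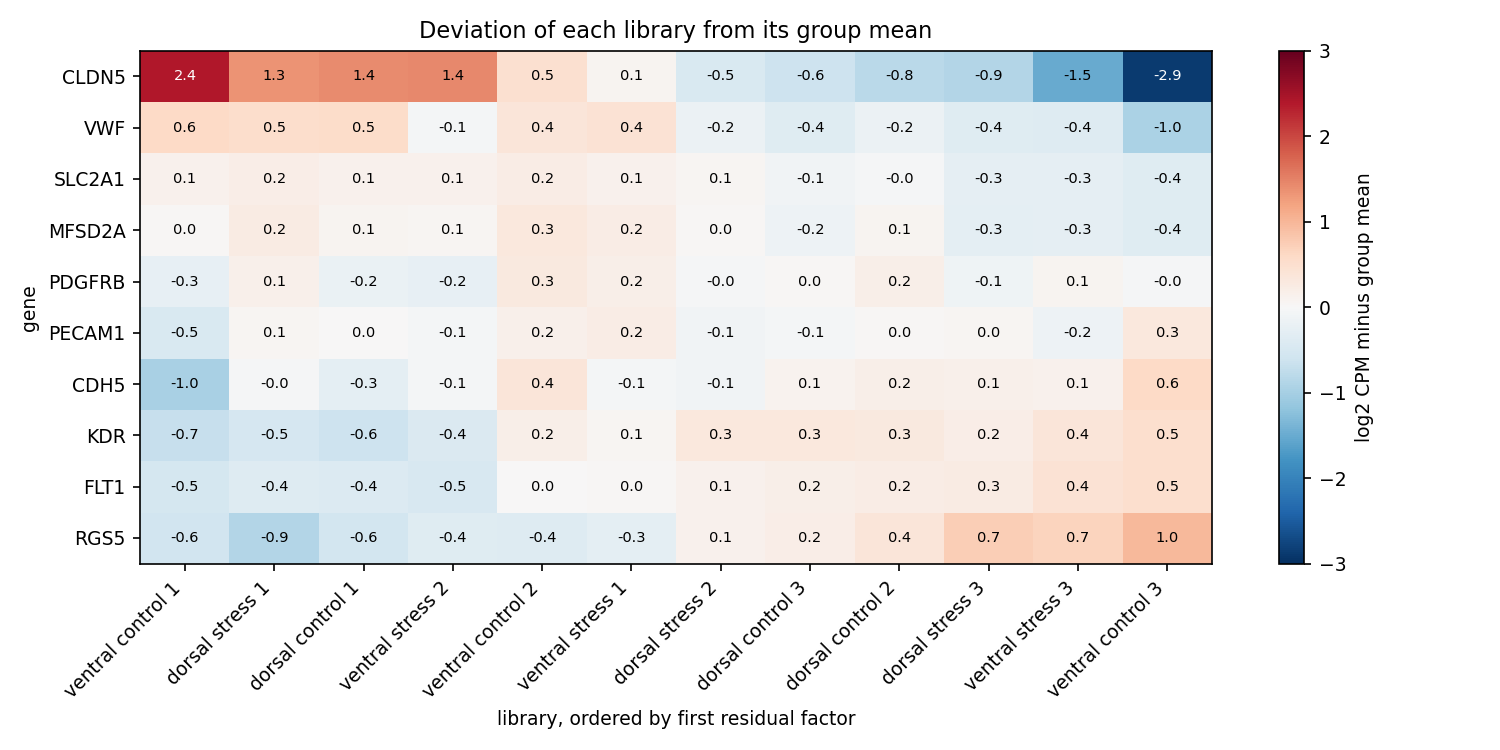
Deviation of log2 CPM from the group mean for each gene (rows) in each library (columns, ordered by the first residual factor); red is above and blue below the group mean. CLDN5 runs from 2.40 in ventral control 1 to -2.88 in ventral control 3, and RGS5 runs the other way.

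Other genes of the vessel wall also lay at both ends of the gradient, where 55.8% of all tested genes had an r past 0.8 in either direction. Of 18 tested endothelial genes outside the members, 8 had an r above 0.8 and 4 below -0.8, and of 17 junction and transporter genes 4 and 9. EGFL7, a protein secreted by endothelial cells, ran with CLDN5 from 178 CPM in ventral control 1 to 13.5 CPM in ventral control 3. ABCB1, the drug efflux pump of the barrier, ran against it from 0.55 to 21.9 CPM in those libraries, and CAV1, caveolin-1, from 0.144 to 13.7 CPM. VEGFB, a ligand of FLT1, was at 196 and 24.7 CPM there. These 4 genes were chosen after their values were seen.

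Genes most like the members in pattern were found by Pearson's r of deviations from group means over the 12 libraries. For the mean of the 8 endothelial genes they were KIF17, IMP4, JAKMIP1, CCDC86 and FH, with r from 0.97 to 0.98. That mean had no common pattern behind it, since the r of its own members ran from -0.72 for FLT1 to 0.96 for SLC2A1, and 3.15% of all tested genes had an r above 0.9. For the mean of PDGFRB and RGS5 the nearest genes were ADNP, SEC23IP, SPAG1, DOCK4 and RAB3GAP1, with r from 0.996 to 0.997. There RGS5 itself had 0.96 and PDGFRB 0.33, and 18.1% of all tested genes passed 0.9.

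Related lists of vessel genes held a few genes called between regions, to be read against the 1.44% of all tested genes called higher and 3.07% called lower in dorsal tissue. A single call in a list of 13 to 18 genes is near that background and is no result about the list. Of 18 other endothelial genes 1 fell in dorsal against ventral tissue and 0 rose, with a median log2 fold change of -0.17. The gene was NOSTRIN, which binds and moves the endothelial nitric oxide synthase, at -1.01 ± 0.25 (edgeR adjusted p = 0.0435). Its levels were 2.35 ± 0.662 and 2.18 ± 0.330 CPM in dorsal control and stress, and 5.78 ± 1.46 and 3.61 ± 1.29 CPM in ventral control and stress (n = 3 each). That call held without dorsal control 1 and was lost without any other library (highest edgeR adjusted p = 0.129), and it was also lost with no filter and under limma-voom (highest adjusted p = 0.0672). ERG, an endothelial transcription factor, was at -0.53 ± 0.18 and was called by DESeq2 and with the residual factor (lowest adjusted p = 0.00857) but not by edgeR (adjusted p = 0.164). TIE1, a receptor of the angiopoietin system, was at 0.28 ± 0.15 and not called.

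Among 20 growth factors and receptors of vessels 2 rose and 1 fell in dorsal tissue, around a median of -0.05. FLT4, VEGF receptor 3, which binds VEGF-C, was at 1.43 ± 0.23 (edgeR adjusted p = 0.00593). It was 14.3, 13.4 and 12.6 CPM in dorsal control and 13.3, 14.0 and 13.5 CPM in dorsal stress, while the ventral libraries had 8.97, 4.86 and 3.58 CPM (control) and 5.11, 3.24 and 4.53 CPM (stress). Every dorsal library lay above every ventral one, in contrast to FLT1 and KDR, whose groups overlapped; the difference between the receptors was not tested.

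The neuropilins are co-receptors for VEGF and for semaphorins, and neurons carry them as well. NRP2 was lower in dorsal tissue at -0.97 ± 0.13 (edgeR adjusted p = 0.0032), with 45.8 to 51.7 CPM in the 6 dorsal libraries and 79.2 to 120 CPM in the 6 ventral ones. NRP1 was higher at 1.26 ± 0.28 (edgeR adjusted p = 0.0296), with 61.4 to 124 CPM against 24.4 to 56.9 CPM. FLT4 and NRP2 kept their calls in all 12 fits that left out 1 library. NRP1 held its call without library 1 of either dorsal group, ventral control 1 or 3, or ventral stress 3, and lost it without any 1 of the other 7 (highest edgeR adjusted p = 0.0901). Which cells hold these transcripts was not tested.

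Of 13 tested genes of the Wnt and Norrin pathway that induces the barrier 1 fell and 0 rose, with a median of -0.12: ADGRA2, the receptor GPR124, at -0.78 ± 0.17 (edgeR adjusted p = 0.0302). ADGRA2 held its call without dorsal stress 1 or ventral control 1 or 3, and lost it without any 1 of the other 9 libraries (highest edgeR adjusted p = 0.0987) and with the replicate block within condition (edgeR adjusted p = 0.0585). TSPAN12, of the same list, went the other way at 1.31 and was not called (edgeR adjusted p = 0.107). It was called by DESeq2, with either replicate block and with the residual factor (lowest adjusted p = 3.1e-05).

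Of 18 other mural cell genes 1 fell and 0 rose, with a median of -0.31. ITGA8, an integrin of smooth muscle and pericytes, was at -1.29 ± 0.30 (edgeR adjusted p = 0.0343), a call that held without dorsal control 2 or ventral control 1 and was lost without any 1 of the other 10 libraries (highest 0.107). It was also lost under limma-voom and with the replicate block within condition (highest adjusted p = 0.0591). ACTA2, the actin of smooth muscle, was at -0.70 ± 0.21 and not called (edgeR adjusted p = 0.0948), but it was called by DESeq2, with either replicate block and with the residual factor (lowest adjusted p = 0.0207). MYH11, the myosin of smooth muscle, was at -0.57 ± 0.25 and not called.

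**Figure D4:**
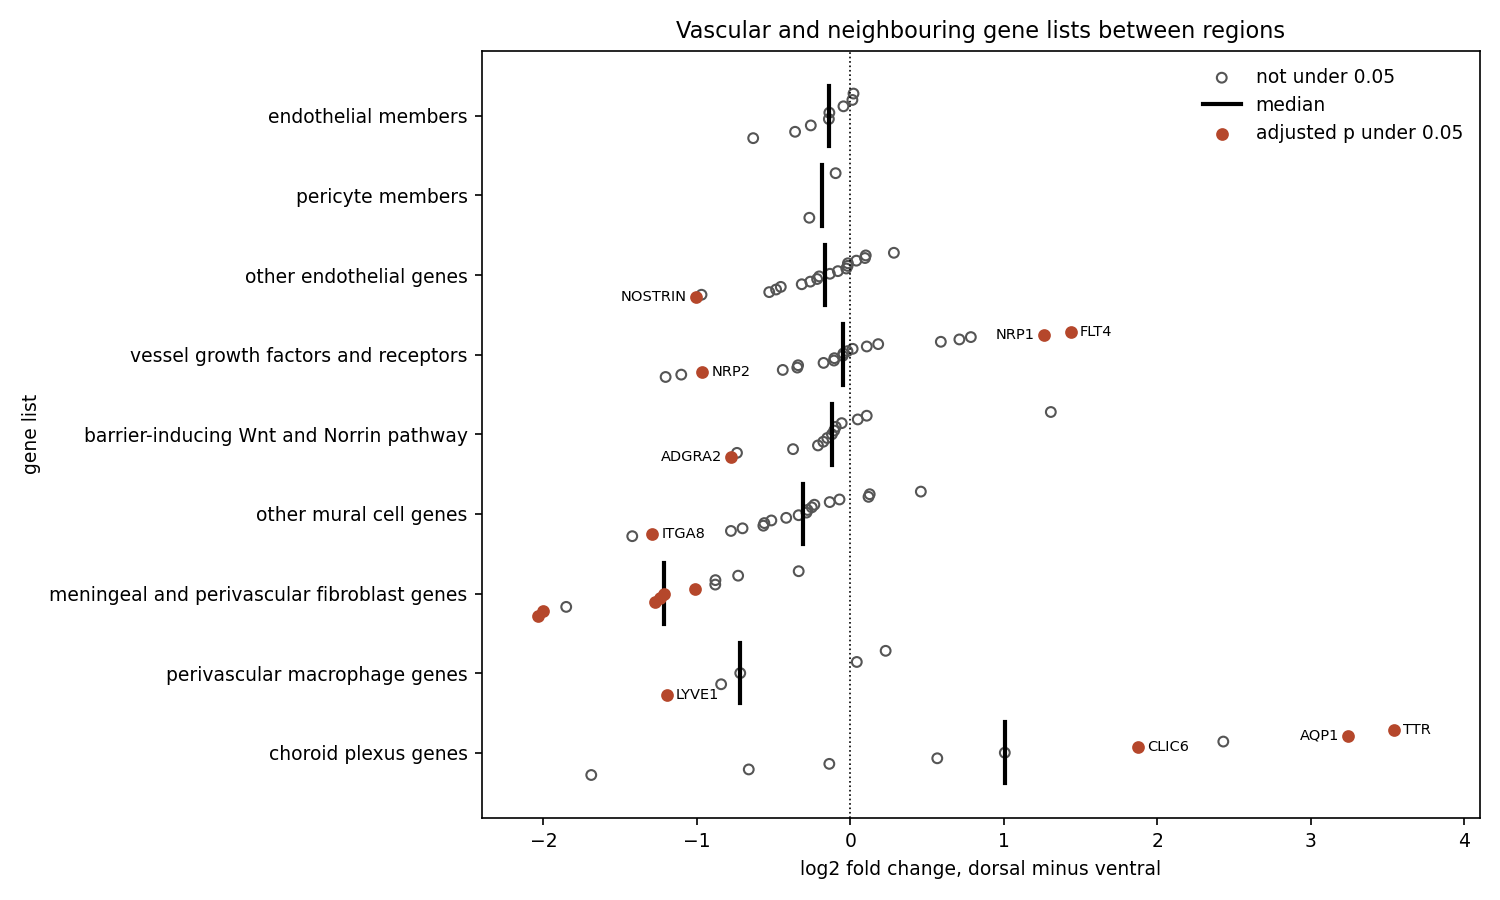
Log2 fold changes of dorsal minus ventral tissue (horizontal axis) for the tested genes of 9 lists (rows), with list medians as black bars and filled points for an edgeR adjusted p under 0.05. The 10 members at the top hold no filled point, and the fibroblast list lies wholly below 0 with a median of -1.22.

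Genes of cells that border the vessels were read in the same way. All 11 tested genes of meningeal and perivascular fibroblasts had negative fold changes, 6 of them called, with a median of -1.22. Their summed level was 223 to 328 CPM in dorsal control, 246 to 300 in dorsal stress, 427 to 775 in ventral control and 570 to 751 in ventral stress. The calls of DCN, FMOD, COL1A2 and SLC6A13 held in all 12 fits that left out 1 library. FOXC1 lost its call in 7 of these fits (highest edgeR adjusted p = 0.0738) and COL1A1 in 6 (highest 0.0716). Of 5 tested genes of perivascular macrophages 1 was called, LYVE1 at -1.20 ± 0.29 (edgeR adjusted p = 0.0456), a call lost without any 1 of the 12 libraries (highest 0.135), with no filter and with the replicate block within condition (highest 0.106). LYVE1 was very low, at 0.394 to 1.61 CPM, with 328 counts over all libraries. The macrophage sums were 21.0 to 34.2, 19.4 to 38.3, 18.6 to 38.03 and 22.4 to 31.0 CPM in the same group order. Of 9 tested choroid plexus genes 3 were called higher in dorsal tissue, CLIC6, TTR and AQP1, and 3 had negative fold changes. The sums of the list were 871 to 2993, 507 to 1228, 164 to 546 and 187 to 228 CPM. TTR alone made up most of the highest sums, 2806 of 2993 CPM in dorsal control 1 and 413 of 546 CPM in ventral control 1. It held less of the lowest, 33.9 of 164 CPM in ventral control 2. The AQP1 call needed library 2 of each group and library 3 of both stress groups: leaving out any 1 of these 6 ended it (highest edgeR adjusted p = 0.056). The part of these neighbouring tissues in the values of CDH5, ITGA8 or the other vessel genes was not tested.

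The summed level of the 8 endothelial members was 263 to 313 CPM in dorsal control, 237 to 306 in dorsal stress, 254 to 339 in ventral control and 249 to 310 in ventral stress. Sums of the pericyte pair were 66.5 to 105, 89.3 to 162, 73.2 to 143 and 103 to 177 CPM. All 4 groups overlapped in both sums. Of red blood cell transcripts, HBB, beta globin, was at 0.0450 to 3.53 CPM. AHSP had 241 counts over all libraries, and ALAS2, which makes haem in red cells, had 1 count in all. Alpha globin was not found under the symbol HBA, so its level could not be read.

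In the stress comparisons 0 genes of these lists were called. The genes named here were among those with the smallest p of their own list, and are given as values only. DES, desmin of muscle and pericytes, was at -0.71 ± 0.50 in dorsal and -0.80 ± 0.49 in ventral tissue. NOSTRIN was at -0.68 ± 0.34 in ventral tissue. In dorsal tissue FMOD, of the fibroblast list, was at -1.10 and FOLR1, of the choroid plexus list, at -1.11. GFAP, of an astrocyte list, was at -0.45 in ventral tissue. WNT7B, a ligand that induces the barrier, was at 0.98 ± 0.83 in dorsal and 1.25 ± 0.84 in ventral tissue. Its level was very low, 0.0721 to 1.78 CPM, with 194 counts over all libraries. Choroid plexus genes were at -1.17 ± 0.43 for CLIC6 in dorsal tissue, and at -2.03 ± 0.91 for TTR and 2.52 ± 0.93 for AQP1 in ventral tissue (edgeR unadjusted p = 0.0207, 0.0475 and 0.0212, adjusted p = 1.00 for each). Without ventral control 1 the ventral value of TTR was 0.02.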

How the data were processed

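Per the labels' protocols, RNA was extracted with TriReagent and libraries were made with a stranded kit for polyadenylated RNA. The values are raw gene counts, deposited as 1 table with a column for each of the 12 libraries. The submitters' processing notes name featureCounts 2.0.0, SAMtools 1.9, TopHat2 2.1.1 and Bowtie2 2.3.5.1. Genome build, gene models and strandedness of counting were not given in the sources used here, so no positions are printed and overlapping or antisense genes cannot be told apart. Names come from the file, with placeholder names looked up by GeneID in a RefSeq gene table (ARS-UI_Ramb_v3.0).

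Counts were filtered with filterByExpr, scaled by TMM and fitted in edgeR 4.0.16 (R 4.3.3) with a robust quasi-likelihood model, 1 mean per group over all 12 libraries. F tests were adjusted by Benjamini-Hochberg over the 17806 tested genes and called at 0.05. Each standard error was derived from the estimate and its F statistic, and intervals use the fit's degrees of freedom. DESeq2 1.42.0 and limma-voom 3.58.1 were alternatives, along with RLE scaling, replicate blocks, no filter, a minimum of 1 CPM in 3 libraries, each library left out and the residual factor. The fit was tested on simulated data. Those counts were drawn independently for each library, with no residual factor and no ewes shared between regions. They therefore cannot show how the fit behaves under either.

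All members are named. From other lists up to 4 genes by smallest p between regions and up to 2 per stress comparison could be named, plus any called gene and the 5 most alike in pattern. The members and lists were chosen with earlier results of these data known. The closest pair of libraries in a group had a chi-square per degree of freedom of 21.6, so no group held the same library more than once. Pairs from different groups were not compared in this way. One gene of the junction and transporter list is not reported here.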

Additional observations from a re-analysis of the deposited data

How the results depend on the processing

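The members' calls did not depend on scaling, filter, tool or block. In each comparison 0 of 10 were called under RLE, no filter, 1 CPM in 3 libraries, DESeq2, limma-voom and the replicate block. The replicate block within condition was fitted only between regions and for the interaction, with 0 of 10 called in each. Stress was not tested under it. With the residual factor, added after the data were seen, 1 member was called between regions (CDH5) and 1 for mean stress (RGS5), among 3761 and 409 genes. Between regions DESeq2 called 1558 genes in all, and leaving out 1 library gave 420 to 1091 genes and 0 to 1 members. For stress DESeq2 called 14 genes for the mean, 1 in dorsal and 1 in ventral tissue.

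Whether equal numbers mark the same ewes is not given in the labels, and the pairing check did not settle it. The r of dorsal with ventral deviations within condition ran from -0.233 to 0.761, over 0.1 in 4 of 6 pairs. Among the 3 libraries of another group, a library correlated best with its own number in 20 of 36 cases, and within condition in 6 of 12. The cases across conditions compare different ewes, so they cannot bear on the question. With the replicate block 1375 genes were called between regions.

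Directions turned only for differences below their SE, or for TTR, and the cause was not tested. Under limma-voom CLDN5 was at 0.19 between regions, 0.096 for mean and 0.069 for ventral stress, FLT1 at 0.022 for ventral stress, and the interactions of CDH5 and RGS5 were -0.13 and -0.032. With the replicate block KDR was at -0.00036 between regions, CLDN5 at 0.063 for mean and 0.11 for ventral stress, FLT1 at 0.031 for ventral stress, and the interactions of CLDN5, CDH5 and RGS5 were -0.10, -0.025 and -0.036. With the replicate block within condition CLDN5 was at 0.042 between regions, and the interactions of CDH5 and RGS5 were -0.090 and -0.011. With the residual factor CLDN5 was at 0.057 between regions, 0.086 for mean and 0.085 for ventral stress, FLT1 at 0.0080 for ventral stress, and the CDH5 interaction was -0.030. With no filter FLT1 was at 0.0034 for ventral stress and the CDH5 interaction was -2.2e-05. The SLC2A1 interaction was 0.0036 under RLE and 0.0039 under DESeq2.

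Leaving out each library gave these ranges. Between regions they were SLC2A1 -0.065 to 0.072, RGS5 -0.31 to 0.23, KDR -0.12 to 0.15, MFSD2A -0.12 to 0.039, CLDN5 -0.90 to 0.43, VWF -0.31 to 0.014 and FLT1 -0.25 to 0.0060. For mean stress they were CLDN5 -0.77 to 0.53, VWF -0.26 to 0.073, PECAM1 -0.010 to 0.17 and FLT1 -0.014 to 0.25. In dorsal stress they were VWF -0.34 to 0.30, CLDN5 -0.92 to 1.17, KDR -0.43 to 0.037 and PECAM1 -0.080 to 0.0053. In ventral stress they were CLDN5 -1.58 to 0.97, CDH5 -0.10 to 0.55, VWF -0.50 to 0.14, TTR -2.51 to 0.024, FLT1 -0.25 to 0.28, KDR -0.53 to 0.0071 and SLC2A1 -0.27 to 0.0056. For the interaction they were CDH5 -0.26 to 0.39, KDR -0.19 to 0.35, SLC2A1 -0.13 to 0.15, PDGFRB -0.11 to 0.18, RGS5 -0.49 to 0.58, VWF -0.18 to 0.48, CLDN5 -0.89 to 1.79, MFSD2A -0.25 to 0.075 and FLT1 -0.057 to 0.48.

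The lowest member count was 42, for CLDN5 in ventral control 3.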
